A study of Mus musculus with 6 samples.

Results

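The sites described here are the limb Smad4 peaks whose summit lay within 1 kb of the start or the end of a protein-coding gene. They were chosen by position alone, from the summit given for each peak and the protein-coding genes of RefSeq on GRCm38.p6 (mm10). The rule took 5352 of the 29756 limb Smad4 peaks, 17.99% (exact 95% interval 17.6 to 18.4%), out of 123182 peaks in the 4 lists of the series. The 2-kb windows around gene ends, which the rule searched, cover 2.91% of the bases up to the last gene or peak of each chromosome. A gene is called marked below when at least 1 limb Smad4 summit lay within 1 kb of either end, and 4773 of 21896 protein-coding genes were marked (21.8%).

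The tissues were limb and molar tooth germ from E13.5 embryos of CD1, an outbred mouse stock, all of them wild type, and the labels name no treatment. Chromatin was fixed in formaldehyde, sonicated and precipitated with an antibody to Smad4 or to pSmad1/5. The groups used were limb Smad4, limb pSmad1/5, molar pSmad1/5 and molar Smad4, with 1 library each, and 2 input libraries without a peak list were not used. Limb tissue at this stage mixes cartilage, muscle, skin, vessels and nerve, and a peak list from the whole tissue does not say in which cells a site was bound. With 1 library per group there is no replicate check and no test between groups. Every interval covers counting error over peaks or genes only, and neighbouring peaks and genes are not independent. Read depth is unknown, since the lists hold no read counts.

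Smad4 is the common partner of the receptor-activated Smads: BMP receptors phosphorylate Smad1, Smad5 and Smad9, TGF-beta and activin receptors phosphorylate Smad2 and Smad3, and either kind enters the nucleus together with Smad4. In the limb, BMP signals shape the ridge, the digits and the interdigital tissue, and they drive cartilage formation, while hedgehog, Wnt and Fgf signals pattern the same outgrowth. Smad complexes contact short GC-rich elements and the CAGAC element, usually beside other transcription factors.

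Of the 5352 sites, 616 lay whole inside a 300-base promoter window (250 bases before to 50 bases after a gene start listed by RefSeq), at 626 genes. The sequences below show what such sites look like: the 4 with the highest scores, and then the 5 with the highest scores among genes of the BMP and TGF-beta, hedgehog and limb patterning lists. They are RefSeq GRCm38.p6 windows in the direction of transcription, with the bases of the peak in capitals.

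Birc6, an inhibitor of apoptosis, chr17:74528045-74528344, + strand: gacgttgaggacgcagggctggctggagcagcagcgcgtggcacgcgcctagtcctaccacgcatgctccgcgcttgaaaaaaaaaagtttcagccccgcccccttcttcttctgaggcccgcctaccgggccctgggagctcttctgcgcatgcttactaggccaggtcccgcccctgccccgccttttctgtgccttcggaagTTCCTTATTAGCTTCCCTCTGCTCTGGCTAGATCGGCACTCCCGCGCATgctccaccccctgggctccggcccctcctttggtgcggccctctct
Susd6, a membrane protein with a sushi domain, chr12:80790282-80790581, + strand: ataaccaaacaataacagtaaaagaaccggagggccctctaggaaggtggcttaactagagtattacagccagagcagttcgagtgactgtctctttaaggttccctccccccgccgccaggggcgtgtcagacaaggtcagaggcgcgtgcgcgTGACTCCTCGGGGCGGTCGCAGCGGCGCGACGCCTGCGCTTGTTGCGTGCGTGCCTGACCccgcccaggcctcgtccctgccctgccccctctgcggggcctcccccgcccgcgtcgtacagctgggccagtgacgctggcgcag
Ets2, a transcription factor of the Ets family, chr16:95702157-95702456, + strand: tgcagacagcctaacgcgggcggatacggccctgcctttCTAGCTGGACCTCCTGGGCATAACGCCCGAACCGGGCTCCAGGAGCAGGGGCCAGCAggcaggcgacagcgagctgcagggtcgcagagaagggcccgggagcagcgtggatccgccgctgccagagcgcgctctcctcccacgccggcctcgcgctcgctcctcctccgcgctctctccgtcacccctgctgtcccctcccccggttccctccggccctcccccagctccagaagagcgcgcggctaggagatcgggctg
Rad17, a loader of the DNA damage checkpoint clamp, chr13:100651012-100651311, - strand: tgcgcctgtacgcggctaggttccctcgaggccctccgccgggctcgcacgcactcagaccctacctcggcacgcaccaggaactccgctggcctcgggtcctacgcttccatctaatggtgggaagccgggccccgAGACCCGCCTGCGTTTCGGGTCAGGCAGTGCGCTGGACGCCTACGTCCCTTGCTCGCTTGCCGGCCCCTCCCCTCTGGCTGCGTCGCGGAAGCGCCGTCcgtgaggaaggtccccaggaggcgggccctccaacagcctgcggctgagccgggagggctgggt
Gdf7, a ligand of the BMP family, chr12:8301905-8302204, - strand: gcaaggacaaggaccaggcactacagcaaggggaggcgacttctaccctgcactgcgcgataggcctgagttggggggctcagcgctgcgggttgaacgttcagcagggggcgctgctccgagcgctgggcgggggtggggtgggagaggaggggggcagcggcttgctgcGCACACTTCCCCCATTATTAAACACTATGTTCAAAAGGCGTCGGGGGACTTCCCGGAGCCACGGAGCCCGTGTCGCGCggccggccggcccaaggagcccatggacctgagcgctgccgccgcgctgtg
Usp15, a deubiquitinase of receptor-activated Smads, chr10:123196970-123197269, - strand: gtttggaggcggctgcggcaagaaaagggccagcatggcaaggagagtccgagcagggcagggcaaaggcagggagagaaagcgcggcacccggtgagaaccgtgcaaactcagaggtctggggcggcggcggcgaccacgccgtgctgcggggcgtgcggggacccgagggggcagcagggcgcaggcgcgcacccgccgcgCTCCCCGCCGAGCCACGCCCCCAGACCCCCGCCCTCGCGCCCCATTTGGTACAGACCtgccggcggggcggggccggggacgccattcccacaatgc
Gli2, a transcription factor of hedgehog signalling, chr1:119053570-119053869, - strand: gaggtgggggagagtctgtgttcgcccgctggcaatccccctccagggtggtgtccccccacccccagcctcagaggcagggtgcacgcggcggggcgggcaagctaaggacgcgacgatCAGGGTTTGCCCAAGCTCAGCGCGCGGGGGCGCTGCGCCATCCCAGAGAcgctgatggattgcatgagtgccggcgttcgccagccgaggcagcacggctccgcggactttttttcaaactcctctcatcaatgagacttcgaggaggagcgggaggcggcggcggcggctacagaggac
Junb, an AP-1 factor, chr8:84978699-84978998, - strand: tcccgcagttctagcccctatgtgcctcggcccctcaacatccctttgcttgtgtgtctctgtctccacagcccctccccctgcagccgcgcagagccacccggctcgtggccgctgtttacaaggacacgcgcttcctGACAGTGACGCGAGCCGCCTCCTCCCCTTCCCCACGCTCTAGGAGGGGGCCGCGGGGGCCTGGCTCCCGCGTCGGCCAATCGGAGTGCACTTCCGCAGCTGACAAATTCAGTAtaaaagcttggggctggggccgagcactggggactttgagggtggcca
Evc2, a ciliary protein of hedgehog signalling, chr5:37338228-37338527, + strand: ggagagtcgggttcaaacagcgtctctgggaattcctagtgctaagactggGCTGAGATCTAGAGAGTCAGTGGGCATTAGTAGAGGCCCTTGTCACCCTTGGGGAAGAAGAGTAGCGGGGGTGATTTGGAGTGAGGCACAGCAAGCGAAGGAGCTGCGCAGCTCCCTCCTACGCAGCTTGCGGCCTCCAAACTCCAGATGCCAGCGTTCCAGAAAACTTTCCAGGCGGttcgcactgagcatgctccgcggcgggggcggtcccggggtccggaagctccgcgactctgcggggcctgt

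All 9 windows were rich in G and C, between 61% in the Evc2 window and 73.7% in the Usp15 window. The peak itself covered 49 bases at Birc6, 78 at Gdf7, 113 at Junb and 178 at Evc2. The Usp15 peak held the CAGAC element 2 times, and the peak overlapped a limb pSmad1/5 peak. No other peak printed here held CAGAC on either strand, and none of the 9 windows held GTCTAGAC, the palindromic Smad box. The Junb window held a TATAAA and a CCAAT box. The Gli2 summit lay 115 bp from the start to which its window belongs and 671 bp from the outermost end of the gene, because RefSeq lists several Gli2 transcripts.

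Most of the sites were at starts. The strand of the nearest gene was known for 4181 sites, and 3363 of these (80.4%, 79.2 to 81.6%) were nearest to a gene start, against 818 nearest to a gene end. The median distance was 277 bp at starts and 557 bp at ends. At starts, 46.2% of summits lay within 250 bp, and at ends 16.0%. The densest stretch ran from 100 to 200 bp inside the gene, with 415 summits, and 2416 of the 3363 start sites (71.8%) lay inside the gene. Measured from the nearest start of any listed transcript, 62.9% lay downstream, and for genes with a single listed start 71.9% of 2742 sites did. Around gene ends there was no such crest: 15 and 16 summits lay in the last 100 bp before and the first 100 bp after the end, fewer than in any other 100-bp step of that window. Only 65 of the 818 end sites (7.95%) also lay within 1 kb of a listed start of any gene.

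**Figure D1:**
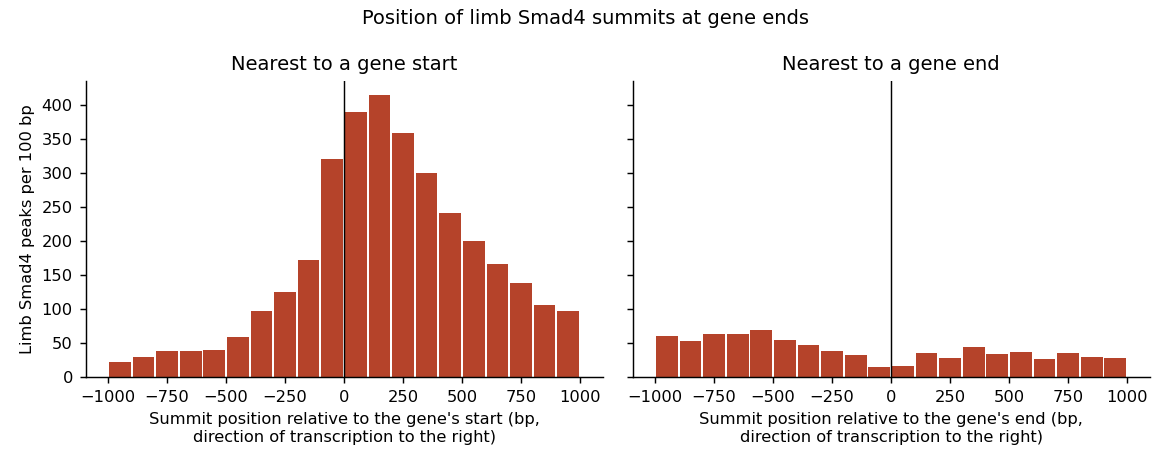
Number of limb Smad4 summits in steps of 100 bp (y axis) by position relative to the nearest gene start (left) or gene end (right), in bp along the direction of transcription (x axis). At starts the counts run up to 415 just inside the gene, and at ends they stay at 70 or below, with 15 and 16 beside the end itself.

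The other lists were placed on genes in the same way. The start share was 78.3% in limb pSmad1/5, 83.8% in molar pSmad1/5 and 57.4% (54.7 to 60.1%) in molar Smad4, so limb Smad4 sites stood with the pSmad1/5 lists in this respect. Gene-end sites made up a smaller share of the molar Smad4 list, 1668 of 34561 peaks, and that list marked 7.76% of genes. The percentage of genes marked was 15.5% in limb pSmad1/5 and 20.7% in molar pSmad1/5. The lists differ in length and in the lowest score listed on each chromosome, so these shares are side by side and not a measure of binding.

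The gene-end sites scored higher and were wider than the 24404 other limb Smad4 peaks. The median enrichment score, the authors' own value per peak, was 3.76 at gene ends (quartiles 3.34 and 4.38) and 3.48 elsewhere (3.19 and 3.94). A score of at least 4 was reached by 39.0% of gene-end sites and by 22.7% of the other peaks. The median width was 65 bp at gene ends and 56 bp elsewhere, and 25.5% against 11.6% of peaks were at least 100 bp wide. Within the sites the same order held by position: the median score was 3.82 at starts and 3.58 at ends, with median widths of 69 and 57 bp. Both were lower at greater distance, from a median score of 3.84 and width of 71 bp in the first 100 bp to 3.71 and 62 bp between 500 and 1000 bp. The share of peaks at least 100 bp wide was 30.1% in the first of these steps and 20.8% in the last.

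The 2 highest scores among the sites belonged to the mitochondrial genome. A peak 108 bp from an end of ND1, a subunit of respiratory complex I, had a score of 22.1. A peak 677 bp from an end of ND5 and 875 bp from an end of ND4, subunits of the same complex, had a score of 17.5. These are the only 2 limb Smad4 peaks on that genome, which is present in many copies per cell. On nuclear chromosomes the highest score was 9.89, at chr7:24481570-24481685, 368 bp from the start of Cadm4, a cell adhesion molecule. Next came Hdhd3, a hydrolase-like protein, with a score of 8.38 at 100 bp from its start, and Ccne2, the G1/S cyclin E2, with 8.31 at 790 bp from an end. Tmem102 scored 8.26 at 518 bp from its end, Birc6 7.96 at 26 bp from its start, and Zfp771, a zinc finger gene, 7.81 at 477 bp from its end. Susd6 had 7.70 at 64 bp from its start. These genes belong to unlike families.

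The sites overlapped the limb pSmad1/5 peaks more often than the other limb Smad4 peaks did. An overlap of at least 1 bp was found for 447 gene-end sites (8.35%, 7.62 to 9.13%) and for 693 other limb Smad4 peaks (2.84%, 2.63 to 3.06%). The order was the same among peaks scoring under 4, where 7.68% of gene-end sites and 2.44% of other peaks overlapped, and among those under 100 bp wide, with 6.65% and 2.30%. Start sites overlapped in 9.46% of cases and end sites in 3.18%. Molar pSmad1/5 peaks overlapped 341 gene-end sites (6.37%, 5.73 to 7.06%) and 339 other peaks (1.39%, 1.25 to 1.54%). Molar Smad4 peaks overlapped 29 gene-end sites (0.542%, 0.363 to 0.777%) and 125 other peaks (0.512%, 0.427 to 0.610%), and these intervals overlap. The list with the same antibody in the other tissue was thus the one with the smallest overlap. Gene-end peaks of every list lie in the same windows, and the part of position in these overlaps was not tested.

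**Figure D2:**
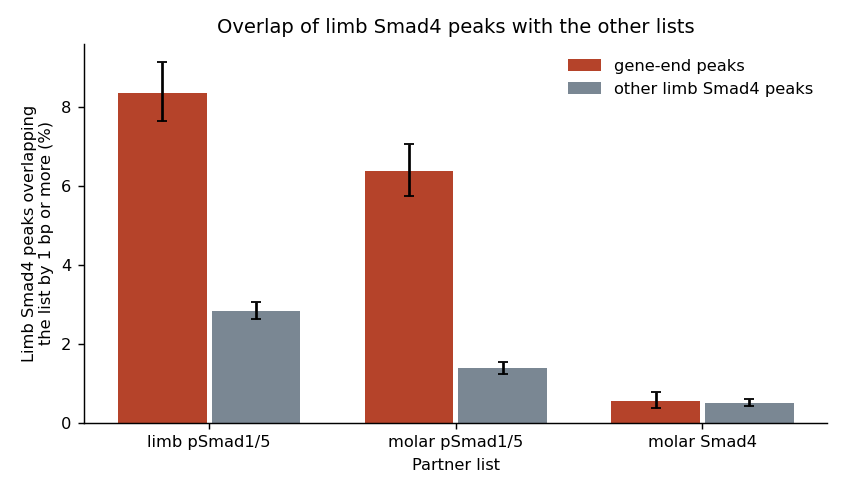
Share of limb Smad4 peaks (y axis, %) that overlap a peak of each other list (x axis) by at least 1 bp, for gene-end peaks (red, n = 5352) and other limb Smad4 peaks (grey, n = 24404). Bars carry exact 95% intervals; gene-end peaks stand higher for both pSmad1/5 lists, at 8.35% and 6.37%, and not for molar Smad4.

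A set of 49 gene-end sites overlapped both pSmad1/5 lists, against 18 other limb Smad4 peaks, and no gene-end site overlapped all 3 other lists. Among the shared limb sites of highest score beside Cadm4 were Urgcp, with 7.47 at 213 bp from its start, and Pop7, a subunit of RNase P, with 7.00 at 44 bp. Another, also with a score of 7.00, lay at chr3:95315282-95315468, where 3 genes start: Anxa9, an annexin, LOC115489748 and Cers2, a ceramide synthase. The sites overlapping both pSmad1/5 lists were led by Igfbp6, which binds insulin-like growth factors, at chr15:102144651-102144955 with a score of 6.27. Then came Pgrmc2, a haem-binding membrane protein, with 6.02, Adcyap1r1, the receptor of the neuropeptide PACAP, with 5.86, and Trim27, a ubiquitin ligase, with 5.73. The site at Tmem102 that overlapped both lists, with 5.52, was a separate peak from its top-scoring one.

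By gene, the lists met more often than by peak. Of the 4773 genes marked by limb Smad4, 1444 (30.3%) were also marked by limb pSmad1/5, which is 42.6% of the limb pSmad1/5 genes, and 11.3% of the genes without limb Smad4 were marked by limb pSmad1/5. Molar pSmad1/5 marked 1663 of the limb Smad4 genes (34.8% of them, 36.6% of its own), against 16.8% of the others. Molar Smad4 marked 482 (10.1%, and 28.4% of its own), against 7.11%.

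Most sites belonged to 1 gene. A single gene lay within 1 kb of 4630 sites, 2 genes of 706 and 3 genes of 16. For 314 sites (5.87%), starts of genes on both strands lay within 1 kb. Whether such starts point away from each other was not checked. Of the marked genes, 3699 (77.5%) had 1 site, 875 had 2, 160 had 3, 34 had 4 and 5 had 5. Joining summits less than 1 kb apart left 4531 separate places. The genes with 5 sites included 2510009E07Rik, Ccdc92, Kcnab2 and Ap3b1. At Kcnab2, a beta subunit of potassium channels, all 5 summits lay between 13 and 866 bp from the start, with scores of 3.13 to 5.11. At Ap3b1, a subunit of the adaptor complex of lysosomal sorting, the 5 lay within 291 bp of the start, with scores of 3.53 to 4.70.

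Marked genes were longer, with a median span of 20770 bp against 16222 bp for unmarked genes. Genes with provisional symbols (Gm, LOC or Rik) were marked in 8.30% of 1891 cases and all others in 23.1%.

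The CpG content of the promoter, which the rule did not use, differed between marked and unmarked genes. Vertebrate promoters fall into CpG-rich ones, typical of widely expressed and developmental genes, and CpG-poor ones, typical of genes of specialised tissues. Promoter windows were listed for 81.1% of the marked genes and 81.8% of all genes outside chromosome 18 and the mitochondrial genome. High-CpG promoters (observed over expected CpG of at least 0.6, G and C of at least 55%) belonged to 7218 genes, and 33.6% of them were marked (32.5 to 34.7%). Genes of the middle class were marked in 21.4% of cases (20.1 to 22.9%) and low-CpG genes, with a ratio under 0.4, in 8.86% (8.19 to 9.55%). The same order held in all 4 lists, from 22.7% to 6.95% in limb pSmad1/5, from 33.4% to 7.63% in molar pSmad1/5 and, much flatter, from 9.31% to 5.84% in molar Smad4.

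**Figure D3:**
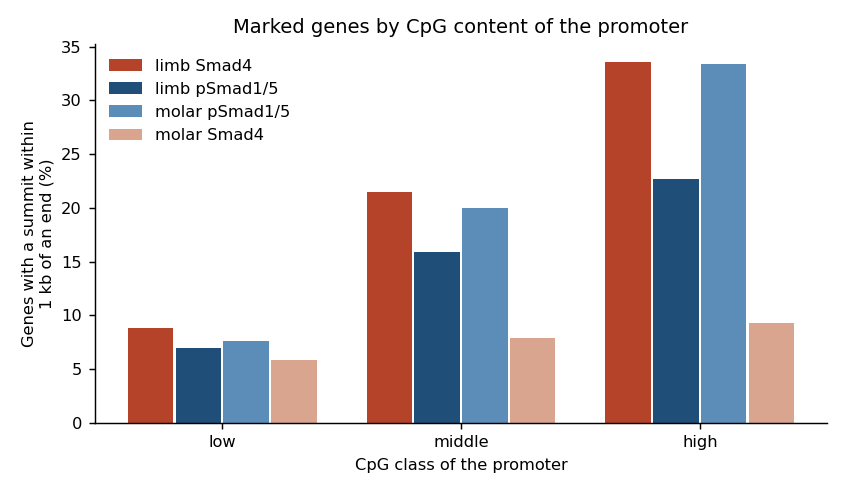
Share of protein-coding genes with a summit within 1 kb of an end (y axis, %) by CpG class of the promoter (x axis), for limb Smad4 first and then the other 3 lists, 1 library each. The share in limb Smad4 is 8.86% in the low, 21.4% in the middle and 33.6% in the high class; molar Smad4 differs least between classes.

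In the 886 promoter windows that held a limb Smad4 summit, the median G and C content was 66%, against 56.3% in all 17491 windows, and the median CpG ratio was 0.82, against 0.58. Short elements followed that composition. GGCGCC, a GC-rich element known to bind Smads, was in 26.4% of windows with a summit and in 15.4% of all windows, but within the high-CpG class in 30.4% and 30.1%. GGGCGG, the GC box, was in 74.9% and 46.3%, and within the high-CpG class in 80.9% and 79.8%. CAGAC was in 44.5% of windows with a summit and 48.8% of all, and within the high-CpG class in 41.8% and 45.1%. TATAAA was in 4.74% and 13.3%. GTCTAGAC was in 3 of the 886 windows. All elements were searched on both strands, GGGCGG and GGCGCC can overlap at their edges, and a match describes letters and not a bound site.

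Marked genes were spread unevenly over chromosomes. On 17 autosomes between 20.7% (chromosomes 13 and 14) and 32.2% (chromosome 15) of genes were marked, 25.3% together. On chromosomes 7 and 9 together the share was 7.80%, on the X chromosome 11.8% and on the Y chromosome 0.781%. The largest p-value listed was 0.000521 on chromosome 7 and 0.000563 on chromosome 9, against 0.000894 to 0.000999 on the other autosomes, so the lists of those 2 chromosomes stop at a smaller p-value, as did that of the X chromosome, at 0.000577. The lowest score listed was just above 3 on every autosome and just above 2 on the X chromosome. Counting only peaks that scored at least 4, 2.96% of genes on chromosome 7 and 4.33% on chromosome 9 were marked. On the other autosomes that share ran from 7.53% (chromosome 14) to 15.5% (chromosome 15). The cause of these differences was not tested. Limb pSmad1/5 marked 9.90% of genes on chromosome 7 and 6.66% on chromosome 9, and its lowest autosomal share was 6.06% on chromosome 1. Each family below was therefore also set against all genes of its own chromosomes.

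**Figure D4:**
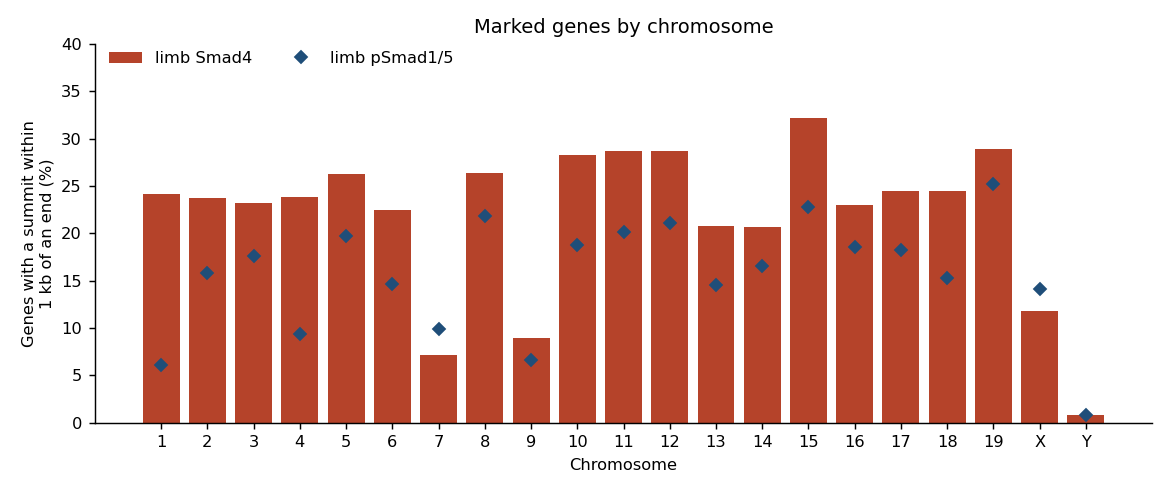
Share of protein-coding genes with a summit within 1 kb of an end (y axis, %) on each chromosome (x axis), for limb Smad4 (bars) and limb pSmad1/5 (diamonds), 1 library each. Chromosomes 7 and 9 stand at 7.14% and 8.91% for limb Smad4, below the other autosomes.

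The families and gene lists were read against the 21.8% of all genes marked. Of 65 families and lists, 46 had a larger marked share. The exact interval lay above 21.8% for 11 of them: Irx and Fox genes, the hedgehog pathway, immediate early genes, splicing factors, BMP-Smad targets, BMP ligands and antagonists, limb patterning, potassium channels, cell cycle and solute carriers. It lay below for 9: vomeronasal and olfactory receptors, chemokines, clustered protocadherins, cytochrome P450 genes, serpins, histones, keratins and zinc finger Zfp genes. The intervals of the other 45, the Notch, Smad, Hox, Sox, Lhx, Wnt, TGF-beta and receptor lists among them, include the share of all genes. Without olfactory and vomeronasal receptors the share of all genes was 23.3%, which the cell cycle interval, starting at 22.7%, includes. The Zfp interval includes the 19.5% of genes marked on the same chromosomes. The lists share genes (Grem1, for example, stands in 3 of them), so their counts are not independent.

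**Figure D5:**
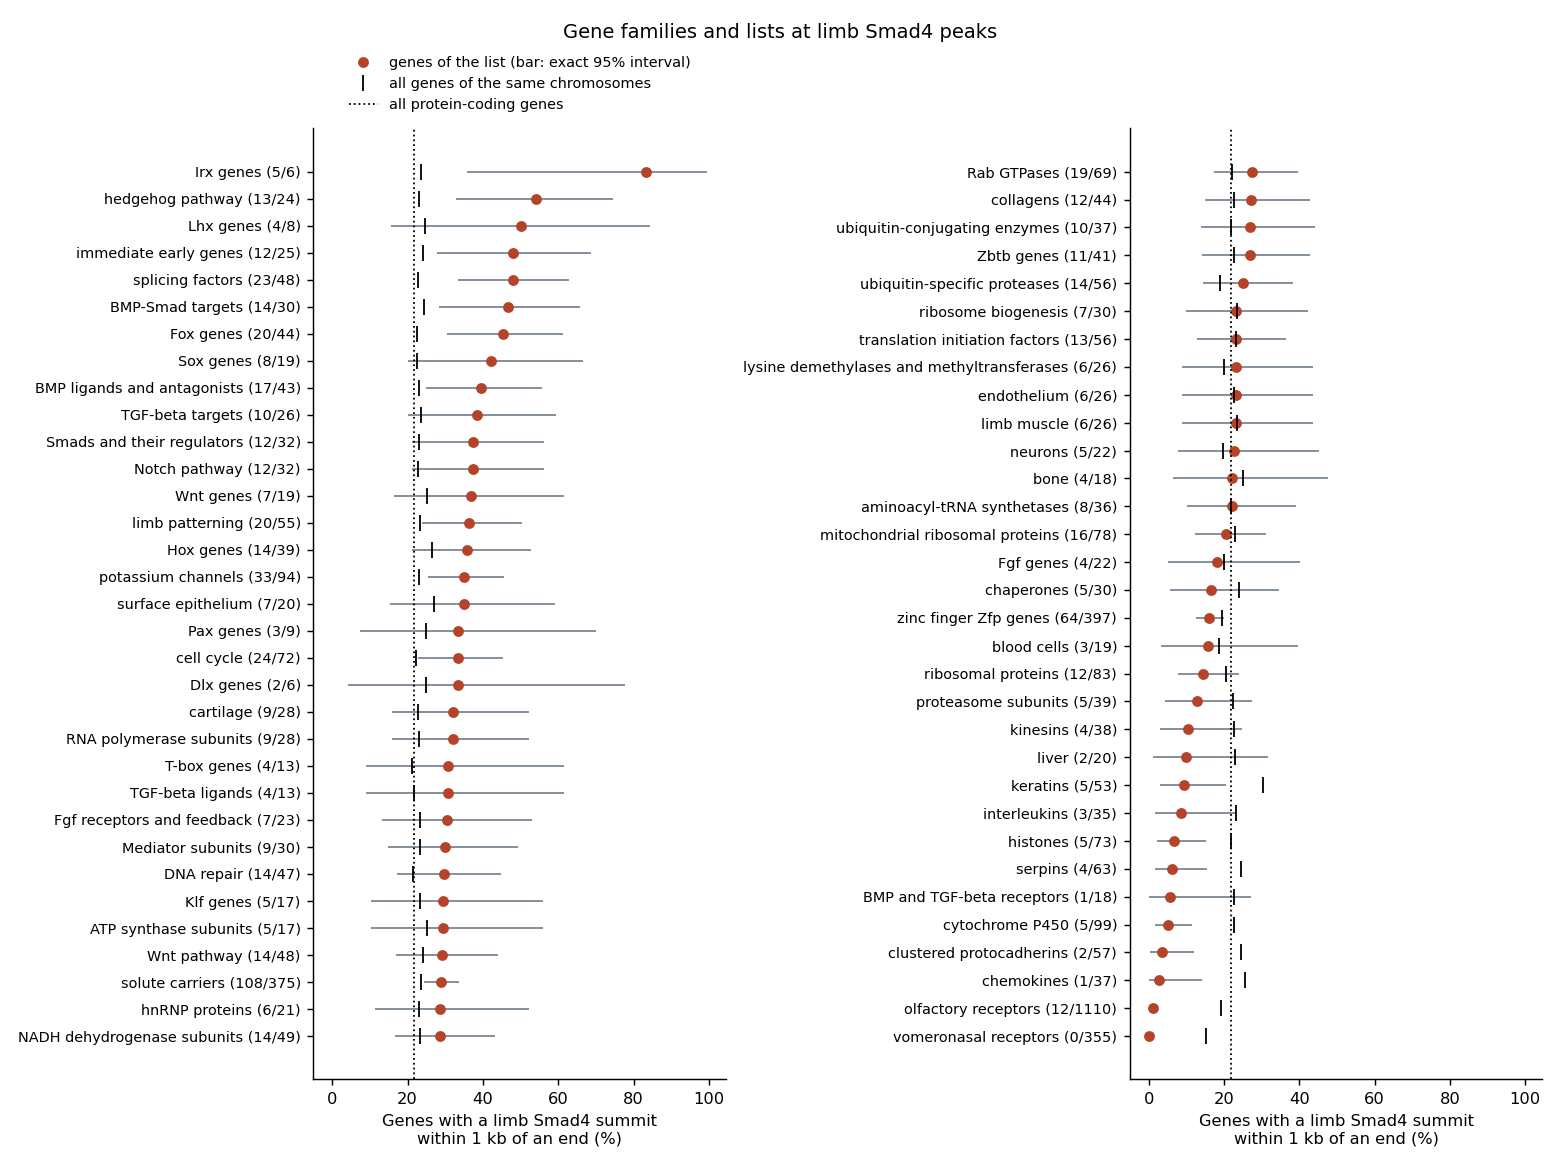
Share of genes marked by limb Smad4 (x axis, %) for 65 families and gene lists (rows, with marked genes over all genes), with exact 95% intervals. The dotted line is the share of all protein-coding genes, 21.8%, and the ticks give all genes of the chromosomes that each family lies on; Irx and hedgehog genes stand at the top, olfactory and vomeronasal receptors at the bottom.

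Among BMP ligands and their antagonists, 17 of 43 genes were marked (39.5%, 24.98 to 55.6%), against 23.0% of the genes on the same chromosomes. The ligands of highest score were Gdf7, with 6.08 at 44 bp from its start, and Bmp7, with 5.48 at 13 bp from an end. Bmp8b had 4.93, Nodal, which acts through Smad2 and Smad3, 4.67, and Bmp8a 4.56. Amh, the anti-Müllerian hormone, had 5.10 at a site that lay within reach of Sf3a2 too. Bmp6 (3.52), Bmp4 (3.43, 142 bp from its start), Gdf6 (3.42) and Gdf15 (3.13) had lower scores, and the Bmp4 and Gdf15 sites overlapped limb pSmad1/5 peaks. Of secreted modulators, Kcp had the highest score, 6.98, at a site it shared with Atp6v1fnb. The antagonists Grem1 (3.86, 99 bp from its start), Nog (3.46, 995 bp from an end) and Nbl1 (3.46) were marked, and so were Crim1 (3.19), a membrane-bound modulator, and Chrdl1 (2.18), which lies on the X chromosome.

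Of 18 BMP and TGF-beta receptor genes 1 was marked (5.56%, 0.141 to 27.3%), Tgfbr3, the co-receptor betaglycan, with a score of 3.496 at 57 bp from an end and an overlap with limb pSmad1/5. At the same distance limb pSmad1/5 marked 4 of the 18 (15.5% of all genes), molar pSmad1/5 10 (20.7% of all genes) and molar Smad4 3 (7.76% of all genes). Of the type II receptor Bmpr2, a limb Smad4 summit with a score of 3.77 lay at 1001 bp, just beyond the limit. With a limit of 2 kb, 5 of the 18 receptors were marked, against 28.4% of all genes.

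Among the Smads and their regulators, 12 of 32 were marked (37.5%, 21.1 to 56.3%). Smad3, of the TGF-beta branch, had 5.24 at 356 bp from its start, although it lies on chromosome 9. Smad1, of the BMP branch, had 4.88 at 284 bp from its start, and that site overlapped a limb pSmad1/5 peak. Smad2 had 3.63 and Smad4 itself 3.08, at 58 bp from an end of the gene. The phosphatases Ctdsp2 (5.37) and Ppm1a (4.01), which act on Smads, were marked, as was Zfyve9 (4.91), the anchor that presents Smads to the receptor. Also marked were the repressors Zeb1 (3.999), Zeb2 (3.78) and Tgif2 (3.73), the 14-3-3 protein Ywhae (3.63) and Usp15 (3.49). The inhibitory Smad6 and Smad7 were not, and they are named here after their values were seen.

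Of 30 known targets of BMP Smads, 14 were marked (46.7%, 28.3 to 65.7%). Tbx2, a T-box repressor, had the highest score, 6.22 at 211 bp from an end, and its relative Tbx3 had 4.01. Msx1 (4.94, 66 bp from its start) and Msx2 (4.57, 147 bp), homeobox genes of the limb margin, Id3 (4.84, 87 bp), an inhibitor of helix-loop-helix factors, and Nkx2-5 (4.99), a homeobox gene known from the heart, followed. Gata2 (3.93) overlapped a limb pSmad1/5 peak. Hes1 (3.75), Atoh8 (3.65) and Grem1 overlapped molar pSmad1/5 peaks. Sp7 (3.59), a factor of bone-forming cells, Nog, Dlx5 (3.29) and Junb (3.21, 69 bp) completed the list, while Id1 and Id2, named after their values were seen, were not marked.

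Of 13 TGF-beta family ligands and their latency proteins, 4 were marked: the binding proteins Ltbp2 (6.08), Ltbp1 (4.07) and Ltbp3 (3.15), and Inhbc (4.15), an activin subunit. No Tgfb ligand gene was among them. Of 26 targets of TGF-beta, 10 were marked (38.5%, 20.2 to 59.4%). Beside Ltbp2 and Junb these included the matricellular Ccn2 (4.81), the cell cycle inhibitor Cdkn2b (3.997), Bhlhe40 (3.47), Snai1 (3.46), Jun (3.36), Ldlrad4 (3.19), which dampens TGF-beta signalling, and fibronectin, Fn1 (3.14).

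The hedgehog pathway had 13 of 24 genes marked (54.2%, 32.8 to 74.4%), against 22.9% of the genes on the same chromosomes, and 8 of its 11 high-CpG genes, against 33.6% of all high-CpG genes. Among other lists the high-CpG count was 7 of 15 for BMP ligands and antagonists, 7 of 21 for Smads and their regulators, 2 of 7 for Hox genes and 16 of 42 for cell cycle genes. The marked genes reached from ligands to targets. Of ligands, Ihh, made by growth plate chondrocytes, had 3 sites and a top score of 5.19, and Shh, made by the posterior limb margin, had a score of 3.01 at 956 bp from an end. At the membrane, the co-receptor Gas1 had 6.03, the antagonist Hhip 5.18, the transducer Smo 5.05, the co-receptor Boc 4.08 and the receptor Ptch1 3.30, and the secreted Scube3 had 3.89. Disp1, which releases the ligand, had 3.33, and Evc2 and Gpr161, which act at the cilium, had 3.20 and 3.03. Of the Gli transcription factors, Gli3 had 3.68 at 162 bp from its start and Gli2 had 3 sites with a top score of 3.36. None of the 13 top sites overlapped a limb pSmad1/5 peak, against 8.35% of all gene-end sites. Limb pSmad1/5 marked 7 of the 24 genes, against 15.5% of all genes. With a limit of 500 bp, 6 of the 24 had a site, against 15.4% of all genes.

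Of 55 limb patterning genes, 20 were marked (36.4%, 23.8 to 50.4%). Beside the T-box, Msx and hedgehog genes above, these included Wnt7a (6.28, 221 bp from its start), the dorsal signal of the limb, Lhx2 (4.79), Fgfr1 (4.66), Tbx4 (3.62, 48 bp from its start) and Pitx1 (3.41), which set hindlimb identity, Shox2 (3.48), of the proximal limb skeleton, Fgf17 (3.06) and Jag2 (3.06). The homeobox gene En1, of ventral limb ectoderm, had a summit at 1001 bp, outside the limit. Limb pSmad1/5 marked 16 of the 55 genes (15.5% of all genes). Molar pSmad1/5 marked 28 (20.7% of all genes) and molar Smad4 4 (7.76% of all genes).

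Families of transcription factors differed from each other. The zinc finger Zfp genes, the largest of them, were marked in 64 of 397 cases (16.1%, 12.6 to 20.1%), below the share of all genes. That interval includes the 19.5% of genes marked on the same chromosomes. Without chromosomes 7, 9, X and Y, 56 of 275 Zfp genes (20.4%) were marked, against 25.3% of all genes. Of 6 Irx genes, 5 were marked: Irx3 (3.48), Irx4 (3.41), Irx6 (3.18), Irx1 (3.08) and Irx5 (3.04). All 5 sites lay between 541 and 978 bp from an end, and Irx6 alone overlapped a limb pSmad1/5 peak. Of 39 Hox genes, 14 were marked (35.9%, 21.2 to 52.8%), and at 500 bp 6 were (15.4%, the same as all genes). Limb pSmad1/5 marked 8 of the 39 (15.5% of all genes) and molar pSmad1/5 19 (20.7% of all genes). With a score of at least 4 a single Hox gene was left, Hoxc11, with 5.69 and 3 sites, and no Irx gene, against 9.73% of all genes. One site scoring 3.96 stood for both Hoxa5 and Hoxa6, which are neighbours. Fox genes (20 of 44, 45.5%) and Sox genes (8 of 19, 42.1%, 20.3 to 66.5%) kept more of their marks at that score, 7 and 5 genes. They were led by Foxf1 (7.49), a factor of mesenchyme and vessels, Foxe1 (5.09), Foxf2 (4.87) and Foxo1 (4.84), and by Sox18 (6.43), of vessels, Sox8 (4.86), Sox1 (4.71) and Sox11 (4.68). Limb pSmad1/5 marked 16 of the 44 Fox genes (15.5% of all genes). Molar pSmad1/5 marked 21 (20.7% of all genes) and molar Smad4 5 (7.76% of all genes). Of 8 Lhx genes, 4 were marked, Lhx5 (5.19) and Lhx2 among them.

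In the Notch pathway 12 of 32 genes were marked (37.5%), led by Lfng (6.23, 80 bp from its start), which modifies the receptor, the receptors Notch2 (5.78) and Notch1 (4.95), and the ligand Dll1 (5.15). Of 19 Wnt ligand genes, 7 were marked, with Wnt2b (5.89), Wnt8a (4.84) and Wnt1 (4.80) after Wnt7a. Of 25 immediate early genes, which respond within minutes to many signals, 12 were marked (48.0%, 27.8 to 68.7%). They were Ier5 (5.59), Ier2 (4.92), Atf3 (4.73), Nr4a3 (4.48), Nr4a1 (4.29), Egr1 (4.15, with 3 sites), Fosl2 (4.01), Egr4 (3.81), Jund (3.66), Jun, Junb and Dusp1 (3.05).

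Lists of tissues within the limb ran from 15.8% (blood cells) to 35% (surface epithelium), against 21.8% of all genes. The exact interval of each of these lists, and that of the liver list, includes the share of all genes. Cartilage had 9 of 28 genes marked (32.1%), led by Matn4 (6.02), a matrix protein, Ihh, Pthlh (5.19, 18 bp from its start), the signal that holds back growth plate maturation, and Nkx3-2 (4.70). Muscle had 6 of 26 (23.1%), led by Mymk (6.12), the fusion protein of myoblasts. Endothelium also had 6 of 26, with Dll4 (4.72) carrying 4 sites. Surface epithelium had 7 of 20 and neurons 5 of 22, led by Neurog1 (6.29), and bone had 4 of 18. Blood cells had 3 of 19 and liver, which should be absent from the sample, 2 of 20 (10%). With a limit of 2 kb, 14 of 26 endothelial, 15 of 28 cartilage and 11 of 20 surface epithelium genes were marked, against 28.4% of all genes. At that limit neurons had 10 of 22, muscle 8 of 26, bone 5 of 18, blood cells 4 of 19 and liver 3 of 20. With a limit of 500 bp, endothelium had 15.4%, cartilage 17.9% and surface epithelium 25%, against 15.4% of all genes.

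Housekeeping families did not behave alike. Of 48 splicing factor genes, 23 were marked (47.9%, 33.3 to 62.8%), against 22.9% of the genes on the same chromosomes, and among those with high-CpG promoters 18 of 32, against 33.6% of all high-CpG genes. Limb pSmad1/5 marked 9 of the 48 (15.5% of all genes), molar pSmad1/5 14 (20.7% of all genes) and molar Smad4 6 (7.76% of all genes). Most of the 23 had a site at the start: Sf3a2, a subunit of the U2 particle, had 3 sites with a top score of 5.89 at 107 bp, U2af1, which reads the 3' splice site, 4.93 at 165 bp, and Prpf39 4.82 at 88 bp. Srsf2, of the SR proteins that aid exon recognition, had 4.92 at 628 bp. Splicing factor scores ran down to 3.02, and the sites of U2af1, Prpf40b and Sf3b2 overlapped limb pSmad1/5 peaks. Cell cycle genes were marked in 24 of 72 cases (33.3%), led by Ccne2, E2f7 (6.76), Mad2l1 (5.28) and Cdk4 (4.81). RNA polymerase subunits were marked in 9 of 28 cases, led by Polr2f (4.83, 16 bp from its start).

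Ribosomal protein genes were marked in 12 of 83 cases (14.5%, 7.70 to 23.9%), led by Rpl15 (5.28), Rps18 (4.69), Rps10 (4.65) and Rpl7a (4.63). Limb pSmad1/5 marked 18 of the 83 (15.5% of all genes). Proteasome subunits (5 of 39, 12.8%) and kinesins (4 of 38, 10.5%) also had smaller shares, with intervals that include 21.8%, while mitochondrial ribosomal proteins (16 of 78, 20.5%), aminoacyl-tRNA synthetases (8 of 36, 22.2%) and translation initiation factors (13 of 56, 23.2%) stood near it. Of potassium channel genes 33 of 94 were marked (35.1%, 25.5 to 45.6%), led by Kcns2 (6.54), Kcnk15 (5.69), Kcnn1 (5.64) and Kcna6 (5.41), and of solute carriers 108 of 375 (28.8%, 24.3 to 33.7%). Among high-CpG genes, 11 of 21 potassium channels and 43 of 124 solute carriers (34.7%) were marked, against 33.6% of all high-CpG genes. Of the 94 potassium channels, limb pSmad1/5 marked 26, molar pSmad1/5 30 and molar Smad4 17. Of the 375 solute carriers, limb pSmad1/5 marked 73, molar pSmad1/5 99 and molar Smad4 36. In the same order, these lists marked 15.5%, 20.7% and 7.76% of all genes.

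At the low end, 12 of 1110 olfactory receptor genes were marked (1.08%, 0.560 to 1.88%) and none of 355 vomeronasal receptor genes, for which the exact interval reaches 1.03%. The olfactory receptors of highest score were Olfr71 (4.66) and Olfr223 (4.44). Chemokines (1 of 37), clustered protocadherins (2 of 57), cytochrome P450 genes (5 of 99), serpins (4 of 63), histones (5 of 73) and keratins (5 of 53) lay between 2.70% and 9.43%. Of those with a listed promoter window, 4 of 26 chemokines, 7 of 77 cytochrome P450 genes and 2 of 54 serpins were high-CpG. For histones this count was 11 of 68 and for keratins 2 of 36, and no clustered protocadherin had a window. Among olfactory receptors 0 of 944 with a window were high-CpG, and among vomeronasal receptors 1 of 323. Low-CpG genes as a class were marked in 8.86% of cases. The intervals of chemokines, clustered protocadherins, cytochrome P450 genes, serpins, histones and keratins include that share, and those of the olfactory and vomeronasal receptors lie below it. The part of CpG content in these shares was not tested. Without the olfactory and vomeronasal receptors the share of all remaining genes marked was 23.3%. Histone and receptor clusters hold similar copies, in which some short reads may not map to 1 place. The treatment of such reads is not stated in the sources used, and the part of mapping in these shares was not tested.

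The limit of 1 kb fell in an even run of peaks. There were 279 sites between 900 and 1000 bp and 262 peaks in the next 100 bp. The sites just inside were at Zfp513 (3.84), Gm36375 (3.03) and B4galt5 (3.68), all at 1000 bp, and those just outside at Naip1 (3.59), En1 (3.54) and Bmpr2 (3.77), all at 1001 bp.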

How the data were processed

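ChIP-seq peaks were called with BCP in its transcription factor mode, 1 list per library, per the labels. The submitters' processing notes name mm10, bcl2fastq, Bowtie2, SAMtools, bedtools and deepTools without versions. The use of the inputs as controls, if any, is not stated in the sources used. The deposited enrichment score and the deposited p-value are the authors' own values per peak and served only to describe and filter peaks. The other columns deposited by the authors give position, length and summit.

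Genes and promoter windows came from RefSeq GRCm38.p6, whose primary chromosomes carry mm10 coordinates. The gene table has no strand, so strand was taken from the promoter windows, which cover 17491 of 21896 protein-coding genes. Summits were used as deposited. Peaks of different lists were called shared at 1 bp of overlap. Intervals are exact (Clopper-Pearson, 95%).

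The sites, the 41 symbol families and the 24 gene lists were chosen with earlier results of these data known, and no list is independent support. Named genes are those of the 10 highest-scoring sites, of the 5 highest overlapping limb pSmad1/5 and both pSmad1/5 lists, those with most sites, up to 4 marked genes of highest score per list and the marked genes of the BMP and TGF-beta lists. Further names in the hedgehog, limb patterning, splicing, Irx and immediate early lists were added after their values were seen. Some genes meeting this rule are not reported here. No test was run, because each group has 1 library. The counting was tested on simulated data. Counting ran in Python 3.11.15 with pandas 2.3.3 and numpy 2.4.6, intervals in scipy 1.17.1, and plots in matplotlib 3.10.9.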

Additional observations from a re-analysis of the deposited data

How the results depend on the processing

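No paired analysis was possible because each group has 1 library. The share of limb Smad4 peaks at gene ends was 12.02% with a limit of 500 bp, 24.8% with 2 kb, 27.3% among peaks scoring at least 4 and 18.6% without chromosomes 7, 9, X and Y, a choice added after seeing the data. A score of at least 4 left 2085 sites at 2130 genes. The share of sites at starts was 87.7% with 500 bp, 72.4% with 2 kb and 86.2% among sites scoring 4 or more.

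Overlap of gene-end sites with limb pSmad1/5 was 14.5% when summits within 200 bp counted, 5.998% when 50% of the shorter peak had to be shared and 4.56% with a score of at least 4 in both lists, beside 5.58%, 1.98% and 1.82% of other limb Smad4 peaks. For molar pSmad1/5 the values were 12.6%, 4.26% and 1.25%, beside 3.04%, 0.897% and 0.379%. For molar Smad4 they were 1.35%, 0.336% and 0.0959%, beside 1.37%, 0.344% and 0.0903%, so the order of the last pair turned with the rule.

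Of the 65 lists, 46 lay above the share of all genes, 37 with a score of at least 4 and 43 without chromosomes 7, 9, X and Y. Among the same 65 lists, 18 had promoter windows for at least 80% of members and more than a few high-CpG genes. Of these 18, 12 lay above the share of all genes. Within high-CpG promoters, a choice added after seeing the data, 8 of the 18 lay above the share of all high-CpG genes. Hox genes (1 of 39), collagens (2 of 44) and Mediator subunits (2 of 30) were below it at a score of at least 4, against 9.73% of all genes, Irx genes there and at 500 bp (0 of 6), and the Wnt pathway at 500 bp (7 of 48, against 15.4%). These settings were not tested for a cause. Depth is unknown, and peaks below the authors' limits are not seen. Holding all chromosomes to a p-value of at most 0.0005, a choice also added after seeing the data, left 18.98% of all genes marked.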
